A study of Mus musculus with 24 samples.

Results

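The 10 genes described here are Eng, Klk8, P3h4, Nsg1, Susd4, Adam19, Ripk4, Bex1, Sh2d5 and Evpl, out of 21878 genes counted in radiation-induced mouse thymic lymphomas. They were chosen because their counts differed between lymphomas with and without an Ikzf1 mutation in these same libraries. The difference between those sets is therefore given as a description, without a test. All 10 passed the filter on low counts. Eng, Klk8, P3h4, Nsg1, Susd4 and Adam19 were higher in the mutated set, and Ripk4, Bex1, Sh2d5 and Evpl were higher in the unmutated set.

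Ikzf1 encodes Ikaros, a zinc finger protein that binds DNA and recruits chromatin remodelling complexes to raise or lower transcription in developing lymphocytes. Loss of Ikaros function is a known route to T-cell leukaemia and lymphoma in the mouse. Gain of chromosome 15, which carries Myc, is another recurrent change in mouse thymic lymphomas. The 10 genes belong to no single pathway. They encode a TGF-beta co-receptor, 2 extracellular proteases, a collagen-modifying cofactor, an endosomal protein, a complement regulator, a kinase, a small adaptor of the Bex family, an SH2-domain protein and a plakin.

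All mice were female B6C3F1, a hybrid strain. The libraries fall into groups: 11 lymphomas with an Ikzf1 mutation, 10 lymphomas without one and 3 normal thymus samples. The labels give 1 treatment for every sample, 4 weekly whole-body doses of 1.6 Gy of carbon ions, started at 4 to 5 weeks of age. The thymus samples carry the same treatment label, and a mark of 7W in their titles has no explanation. Dissociated lymphoma cells or thymocytes gave the RNA, and all libraries share 1 batch date. Each lymphoma was placed in its set by the columns of 2 count tables that the authors had filtered; the sources used here do not say how mutations were called. The labels do not say that each library is a separate animal, so p-values measure only the spread between these libraries.

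Total counts were 18.4 to 36.6 M (M is 1000000) in the mutated set, 15 to 32.2 M in the unmutated set and 24.5 to 27.5 M in thymus. The marker genes of thymocytes summed to 3770 to 8521 CPM (counts per M) in the mutated set, 2989 to 8758 CPM in the unmutated set and 12780 to 14040 CPM in thymus, with none of the 11 at 0. By edgeR at an adjusted p under 0.05, 9 of the 11 fibroblast markers were higher in each lymphoma set than in thymus. Of the 11 macrophage markers, 10 were higher in the unmutated set and 9 in the mutated set. All 7 neutrophil markers were lower in both lymphoma sets. Of all tested genes, 26.0% were called in either direction in the mutated set and 35.4% in the unmutated set against thymus. In bulk RNA, fewer cells of a type and less RNA per cell cannot be told apart, and the part of these cells in the results below was not tested.

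Ikzf1 itself ranged from 79.3 to 1873 CPM in the mutated set (median 835), from 430 to 1011 CPM in the unmutated set (median 540) and from 835 to 1049 CPM in thymus. The mutated lymphomas thus held both the lowest Ikzf1 level, in lymphoma 2, and the highest, in lymphoma 15. The level of Ikzf1 RNA did not separate the sets: 5 of 11 mutated lymphomas lay above every unmutated one and 3 lay below every unmutated one.

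Chromosome 15 expression was summarised for each library as the median over 497 genes of log2(CPM + 1) minus the thymus mean. It exceeded 0.3 in 1 of 11 mutated lymphomas (lymphoma 12), in 7 of 10 unmutated lymphomas (18, 20, 22, 30, 32, 34 and 35) and in none of the 3 thymus libraries. None of the 10 genes lies on chromosome 15. In GRCm38, Adam19, P3h4 and Evpl lie on chromosome 11, as does Ikzf1, and the other 7 genes lie on 7 different chromosomes.

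The genome positions and start regions of the genes are given because Ikaros binds a short DNA core and the sets differ in its gene. The RefSeq promoter table (GRCm38.p6) holds 300-base windows, 250 bases before and 50 after a start, for 5 of the 10 genes: Eng, Klk8, Susd4, Adam19 and Bex1. P3h4, Nsg1, Ripk4, Sh2d5 and Evpl were not matched. The core TGGGAA, searched on both strands (TTCCCA on the other), was in 2 of the 8 windows of these 5 genes and in 8397 of all 32851 windows (25.56%). Windows of 4 genes are shown 5′ to 3′ on the strand of the gene, with the core in capitals where it is found: the 2 windows with a match, and those of Eng and Klk8, which have none. Susd4 has 2 windows, of which the one with a match is shown.
Susd4, chr1:182764646-182764945, plus strand: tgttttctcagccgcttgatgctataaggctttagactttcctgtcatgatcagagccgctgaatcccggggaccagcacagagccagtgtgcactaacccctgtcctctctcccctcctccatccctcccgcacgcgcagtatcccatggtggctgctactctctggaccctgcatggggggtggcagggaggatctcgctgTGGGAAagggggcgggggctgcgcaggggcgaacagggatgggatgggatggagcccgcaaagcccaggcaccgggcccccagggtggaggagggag
Bex1, chrX:136215464-136215763, minus strand: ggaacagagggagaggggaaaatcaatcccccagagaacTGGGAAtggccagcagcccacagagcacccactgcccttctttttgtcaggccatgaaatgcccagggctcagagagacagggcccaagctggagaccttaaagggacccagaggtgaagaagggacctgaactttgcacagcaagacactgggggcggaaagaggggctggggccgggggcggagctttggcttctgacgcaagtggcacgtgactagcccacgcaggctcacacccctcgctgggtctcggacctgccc
Eng, chr2:32646345-32646644, plus strand: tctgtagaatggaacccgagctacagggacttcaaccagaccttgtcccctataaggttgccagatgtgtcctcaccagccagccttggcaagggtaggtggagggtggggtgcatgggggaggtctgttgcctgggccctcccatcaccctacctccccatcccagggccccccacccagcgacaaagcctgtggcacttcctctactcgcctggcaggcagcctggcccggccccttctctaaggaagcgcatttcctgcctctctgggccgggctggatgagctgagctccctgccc
Klk8, chr7:43797327-43797626, plus strand: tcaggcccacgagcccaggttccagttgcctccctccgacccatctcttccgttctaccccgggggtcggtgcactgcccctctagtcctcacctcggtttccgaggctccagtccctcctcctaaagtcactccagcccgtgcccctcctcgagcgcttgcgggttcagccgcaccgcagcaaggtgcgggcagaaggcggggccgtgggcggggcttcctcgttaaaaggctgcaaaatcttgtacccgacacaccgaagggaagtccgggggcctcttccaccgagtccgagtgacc
The core was in a window of Susd4, which was higher in the mutated set, and in the window of Bex1, which was higher in the unmutated set. GC content was 63.67% in the Susd4 window, 61.33% in Bex1, 63.33% in Eng and 65.33% in Klk8, and the median over all windows was 52.67%. A match is a description of the letters and not of binding.

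Eng encodes endoglin, a co-receptor for BMP9, BMP10 and TGF-beta best known from endothelial cells. Its gene spans chr2:32646595-32682669 on the plus strand. Eng was 0.479 to 46.2 CPM in the mutated set (median 9.40), 0.491 to 2.36 CPM in the unmutated set (median 1.19) and 13.3, 14.2 and 15.1 CPM in thymus. The mutated lymphomas fell into a high and a low part: lymphomas 2, 7, 9, 10, 13 and 17 were above every unmutated lymphoma, at 9.40 to 46.2 CPM, and the other 5 were at or below 1.54 CPM. All 10 unmutated lymphomas were below thymus.

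Klk8 encodes a secreted serine protease, kallikrein-related peptidase 8 (neuropsin), known from brain and skin, at chr7:43797577-43803826 on the plus strand. It was 0.133 to 62.9 CPM in the mutated set (median 0.883), 0.0573 to 1.86 CPM in the unmutated set (median 0.176) and 18.3, 19.1 and 24.1 CPM in thymus. Lymphomas 2, 10, 13, 16 and 17 of the mutated set held 19.1 to 62.9 CPM, while the other 6 held at most 0.883 CPM. The mean of the mutated set, 17.5 ± 22.5 CPM (SD, n = 11), lay between these parts, with no lymphoma between 0.883 and 19.1 CPM.

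P3h4, also called SC65, encodes a non-enzymatic member of the prolyl 3-hydroxylase family that works with lysyl hydroxylation of collagen. The gene lies at chr11:100408456-100414836 on the minus strand. P3h4 was 0.266 to 64.6 CPM in the mutated set (median 10.8), 0 to 9.68 CPM in the unmutated set (median 1.49) and 12.2, 16.2 and 16.9 CPM in thymus. Lymphomas 2, 4, 9, 12, 13 and 14 exceeded every unmutated lymphoma, and lymphoma 12 was the highest. The one unmutated library with no count, lymphoma 34, allows up to 0.154 CPM (3 counts).

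Nsg1 encodes a small membrane protein of the endosomal pathway studied mostly in neurons, at chr5:38137192-38159907 on the minus strand. Nsg1 was 0.0321 to 38.4 CPM in the mutated set (median 2.00), 0 to 1.84 CPM in the unmutated set (median 0.0452) and 4.70, 4.86 and 5.41 CPM in thymus. Mutated lymphomas 2, 7, 9, 12 and 16 were above all thymus libraries and the other 6 were below them. No count was found in 4 unmutated libraries, which allows up to 0.0982 to 0.186 CPM, and 28 of the 38 counts of the set came from lymphoma 21.

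Susd4 encodes a complement regulator with sushi domains, at chr1:182763860-182896591 on the plus strand. It was 0 to 166.3 CPM in the mutated set (median 8.06), 0 to 3.74 CPM in the unmutated set (median 0.0566) and 0.395, 0.731 and 0.753 CPM in thymus. Lymphomas 2, 9, 10, 13, 15 and 16 were above all unmutated ones, with 166.3 CPM in lymphoma 10 and 104.3 CPM in lymphoma 16. Thymus held only 51 counts of Susd4 in all, and lymphomas 4 and 12 of the mutated set held none, which allows up to 0.120 and 0.127 CPM.

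Adam19 encodes a membrane metalloprotease (meltrin beta) that cleaves neuregulin and other surface proteins. The gene lies at chr11:46055992-46147343 on the plus strand. Adam19 was 1.74 to 564.4 CPM in the mutated set (median 60.9), 3.50 to 68.0 CPM in the unmutated set (median 16.8) and 11.1, 12.6 and 13.9 CPM in thymus. Lymphomas 2, 4, 10, 13 and 16 exceeded every unmutated lymphoma, with 564.4 CPM in lymphoma 2. Lymphomas 12 and 17 were below every unmutated one.

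Ripk4 encodes a receptor-interacting kinase needed for differentiation of the epidermis, at chr16:97741933-97763787 on the minus strand. It was 0.110 to 29.3 CPM in the mutated set (median 1.12), 0.185 to 182 CPM in the unmutated set (median 37.2) and 0.237, 0.292 and 0.323 CPM in thymus, where the 3 libraries held 23 counts in all. Lymphomas 20, 21, 30, 32 and 34 of the unmutated set were above every mutated lymphoma. The unmutated lymphoma 19 was below all 3 thymus libraries.

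Bex1 encodes a small adaptor of the Bex family, linked to the p75 neurotrophin receptor, at chrX:136213972-136215513 on the minus strand. It was 0.110 to 14.1 CPM in the mutated set (median 2.03), 0.0327 to 137 CPM in the unmutated set (median 32.1) and 6.17, 7.10 and 8.37 CPM in thymus. Unmutated lymphomas 18, 20, 21, 22, 30, 34 and 35 were above every mutated lymphoma, and the other 3 were below thymus. The mutated set had 9 lymphomas below thymus and 2 above it.

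Sh2d5 encodes an SH2-domain adaptor studied in brain, at chr4:138250403-138261332 on the plus strand. It was 0.715 to 3.99 CPM in the mutated set (median 1.74), 0.720 to 30.9 CPM in the unmutated set (median 9.41) and 6.03, 6.49 and 6.95 CPM in thymus. All 11 mutated lymphomas were below thymus. Unmutated lymphomas 18, 20, 22, 30, 32, 34 and 35 were above every mutated lymphoma and above thymus, and the other 3 were below it.

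Evpl encodes envoplakin, a plakin of the cornified envelope of skin that links desmosomes to keratin filaments. The gene lies at chr11:116220559-116238077 on the minus strand. Evpl was 0.869 to 13.97 CPM in the mutated set (median 5.31), 2.29 to 68.0 CPM in the unmutated set (median 26.7) and 13.9, 14.01 and 15.1 CPM in thymus. Of the mutated lymphomas, 10 were below the thymus range, and the exception was lymphoma 2. Unmutated lymphomas 21, 22, 30, 31, 32, 34 and 35 were above every mutated one.

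**Figure D1:**
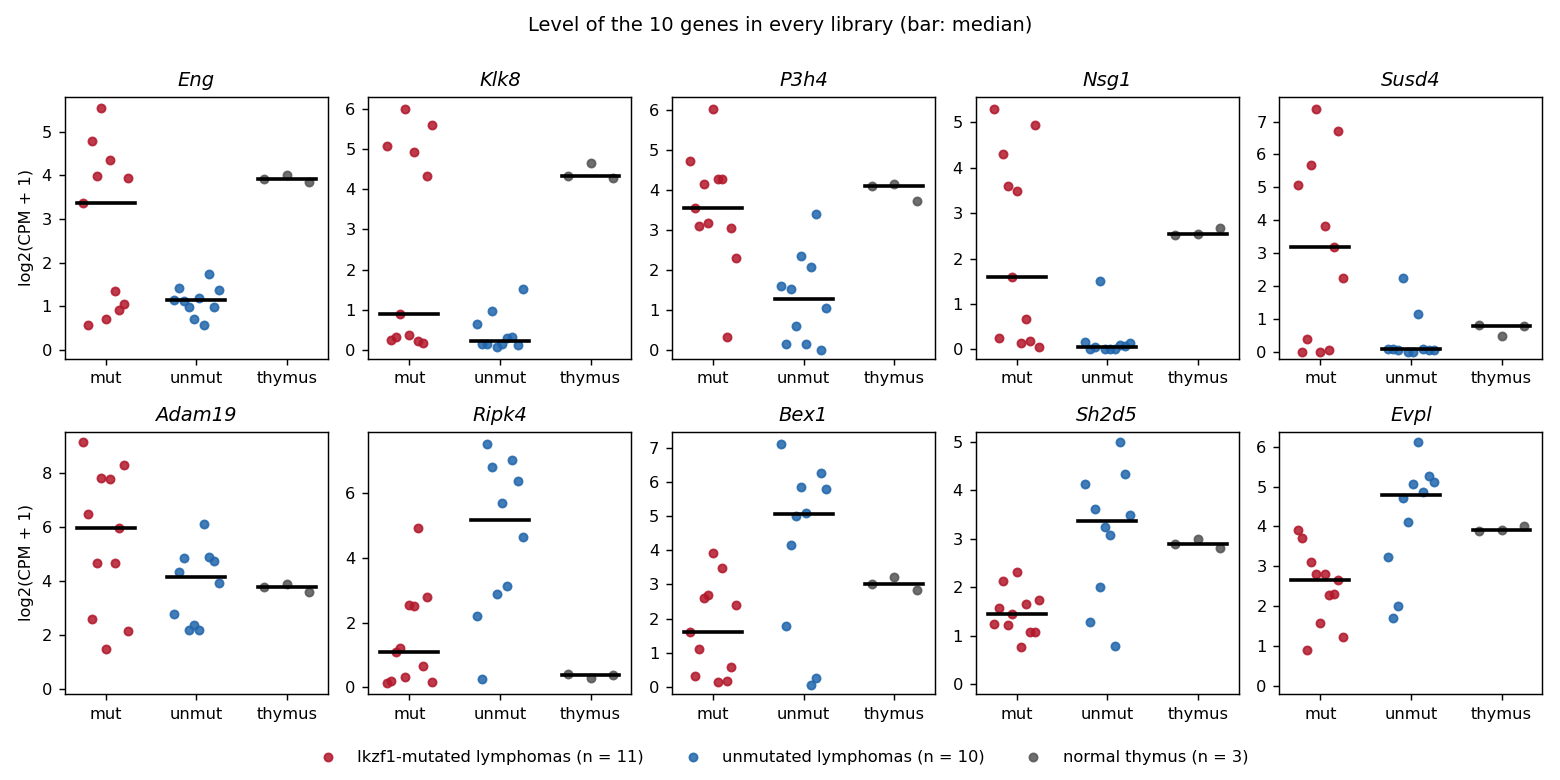
Level of each gene as log2(CPM + 1) in every library, with 11 Ikzf1-mutated lymphomas at the left, 10 unmutated lymphomas in the middle and 3 thymus libraries at the right of each panel; points are libraries and bars are medians. For Eng, Klk8, P3h4 and Nsg1 all 10 unmutated lymphomas lie below thymus, while the mutated lymphomas lie on both sides of it.

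Across the 21 lymphomas the log2 difference of mutated over unmutated (edgeR model of 3 groups) was 3.31 for Eng, 5.27 for Klk8, 2.85 for P3h4, 5.56 for Nsg1, 6.06 for Susd4 and 2.80 for Adam19. It was -3.76 for Ripk4, -3.36 for Bex1, -2.50 for Sh2d5 and -2.16 for Evpl. The size of the difference depended on the scale. By limma on log2(TPM + 1), with TPM for transcripts per M, it was 1.60 for Eng, 2.44 for Klk8 and 2.13 for Nsg1. On that scale it was 2.55 for Susd4, 1.745 for Adam19, -1.46 for Sh2d5 and -1.43 for Evpl. For P3h4, Ripk4 and Bex1 no such move was marked there. In edgeR, leaving out 1 library moved the fold by over 1.5 times for 5 of the genes. Without lymphoma 21 the edgeR log2 difference was 7.61 for Nsg1 and 7.45 for Susd4, and without lymphoma 10 it was 5.35 for Susd4. It was 5.93 for Klk8 without lymphoma 35, 3.49 for P3h4 without lymphoma 32 and -4.96 for Ripk4 without lymphoma 14. Between the sets 706 of 13121 tested genes passed the threshold of 0.05 on the adjusted p (5.38%); the 10 genes are among them by choice, and nothing is read from that. No gene separated the sets fully: the 6 genes higher in the mutated set had 5 or 6 mutated lymphomas above the unmutated range, and the 4 genes higher in the unmutated set had 5 or 7 unmutated lymphomas above the mutated range.

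The lymphomas differed in how many of the genes they held high. Lymphoma 2 exceeded the unmutated range in all 6 of the mutated-high genes, lymphomas 10 and 13 in 5, lymphomas 9 and 16 in 4, lymphomas 4, 7, 12 and 17 in 2, and lymphomas 14 and 15 in 1. Of the unmutated lymphomas, 30 and 34 exceeded the mutated range in all 4 of the unmutated-high genes. Lymphomas 20, 21, 22, 32 and 35 exceeded it in 3, lymphoma 18 in 2, lymphoma 31 in 1 and lymphoma 19 in none. These counts describe the same values that chose the genes.

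**Figure D2:**
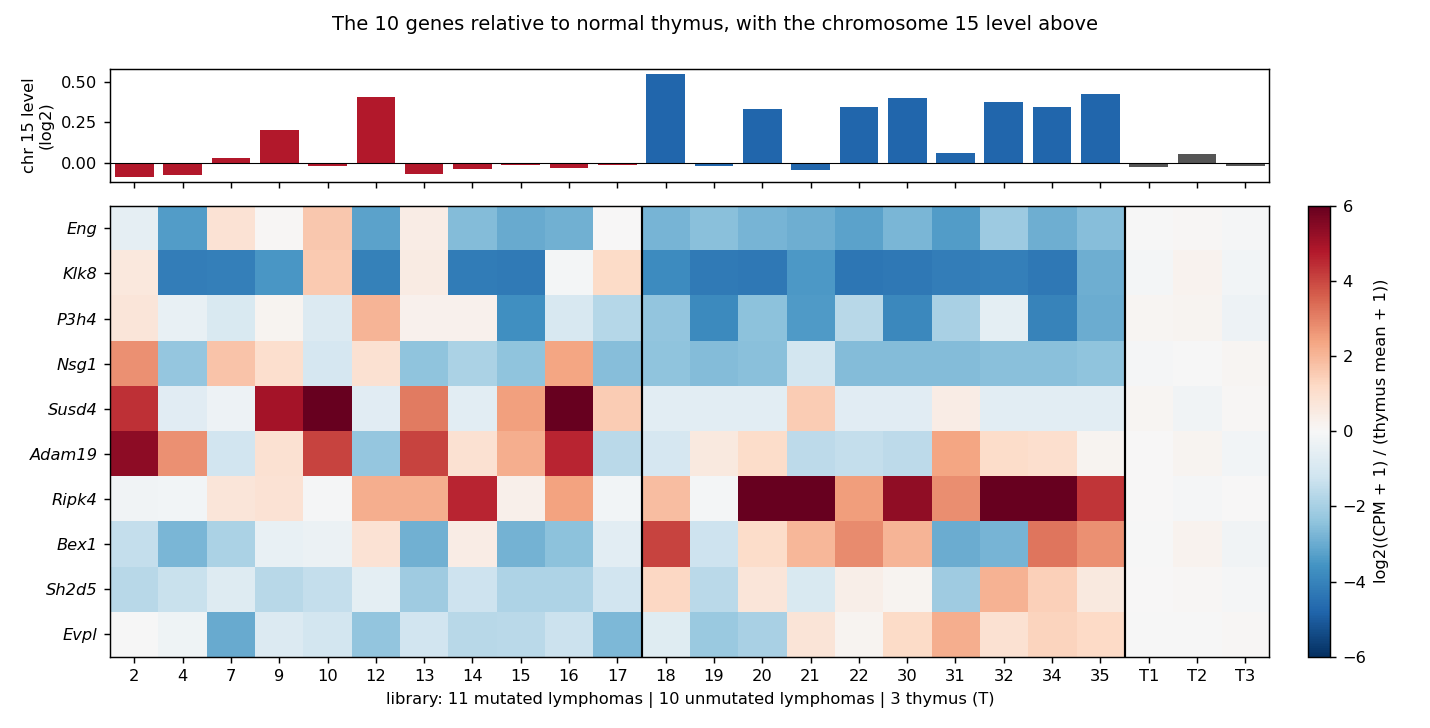
Each gene (row) in each library (column) as log2((CPM + 1) / (thymus mean + 1)), red above and blue below thymus, with colours saturating beyond 6 in either direction; the bars above give the chromosome 15 level of the library. The unmutated lymphomas with a raised chromosome 15 level (18, 20, 22, 30, 32, 34 and 35) are those in which Sh2d5 is above thymus.

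On the length-adjusted scale (TPM, transcripts per M), the order of the genes differed between the groups. By median, Adam19 was highest in the mutated set at 24.3 TPM (0.706 to 215 TPM), followed by P3h4 at 15.1 TPM. Bex1 was highest in the unmutated set at 92.2 TPM (0.0966 to 336 TPM), followed by Ripk4 at 22.4 TPM. In thymus, Klk8 was highest at 39.1 TPM (36.3 to 46.3 TPM), P3h4 and Bex1 followed at 23.0 and 22.3 TPM with overlapping ranges, and Ripk4 was lowest at 0.194 TPM.

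The next comparison set the lymphomas against normal thymus. All 21 lymphomas against thymus gave no call among the 10 genes by edgeR's quasi-likelihood test, against 30.8% of all tested genes, with 1 of the 10 at an unadjusted p under 0.05 (41.7% of all tested genes) and 1 called by DESeq2 (36.5%). That gene was Ripk4, at 6.73 on the log2 scale (SE 2.66, adjusted p 0.0560). Because the genes were chosen on lymphoma values, the tests of each set against thymus below share the lymphomas with that choice and are read with that in mind.

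In the unmutated set against thymus, 5 of the 10 genes passed the test, against 35.4% of all tested genes. Eng, Klk8, P3h4 and Nsg1 fell, and Ripk4 rose. Klk8 fell by 5.50 on the log2 scale (SE 1.30, edgeR adjusted p 0.00254), and Eng fell by 3.52 (SE 0.85, adjusted p 0.00286); both were lower in 10 of 10 lymphomas. Nsg1 fell by 4.54 (SE 1.42, adjusted p 0.0161), also in 10 of 10. Without lymphoma 21 the log2 value of Nsg1 was -6.59, and without lymphoma 35 that of Klk8 was -6.13.

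P3h4 fell by 2.72 on the log2 scale (SE 0.98, edgeR adjusted p 0.0344), in 10 of 10 lymphomas, but the call was lost without thymus 1, 2 or 3, without lymphoma 21 and with the authors' gene filter, up to an adjusted p of 0.0980. Without lymphoma 32 its log2 value was -3.35. Ripk4 rose by 7.69 (SE 2.26, adjusted p 0.0111), in 9 of 10 lymphomas, and the call was lost without thymus 1 or thymus 2, up to 0.0551. Eng, Klk8 and Nsg1 stayed past the threshold in all 30 alternatives run. The thymus count of Ripk4 was low, so its fold is a large ratio of a small level.

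Of the 10 tested markers of thymic epithelium, edgeR called 5 lower and none higher in each lymphoma set against thymus. The shares of all tested genes called in either direction were 26.0% in the mutated set and 35.4% in the unmutated set. Their sum over 11 genes was 17.7 to 75.1 CPM in the mutated set, 20.46 to 69.05 CPM in the unmutated set and 77.85 to 113 CPM in thymus, with none at 0 in a whole group. Prss16, a serine protease of the thymic cortex, differed from thymus by -7.43 on the log2 scale in the mutated set and by -7.77 in the unmutated set, Psmb11, a subunit of the thymoproteasome, by -5.93 and -5.95, and Krt18, a keratin, by -3.07 and -3.02. The part of these cells in the differences of the 10 genes from thymus was not tested.

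Susd4, Adam19, Bex1, Sh2d5 and Evpl did not pass in the unmutated set. Their log2 differences from thymus were -0.29, 0.68, 2.50, 0.76 and 0.83, with SE of 1.81, 1.21, 1.55, 0.72 and 0.79.

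In the mutated set against thymus, 1 of the 10 genes passed, against 26.0% of all tested genes. Sh2d5 fell by 1.75 on the log2 scale (SE 0.62, edgeR adjusted p 0.0412), and was lower in 11 of 11 lymphomas. The call was lost in 14 of 30 alternatives, with adjusted p from 0.00660 to 0.137. DESeq2 called 4 of the 10, Sh2d5, Susd4, Adam19 and Ripk4, against 31.9% of all tested genes. In edgeR, Susd4 and Adam19 had log2 differences of 5.77 (SE 2.47, adjusted p 0.0859) and 3.48 (SE 1.45, adjusted p 0.0788), and Ripk4 3.93 (SE 1.895, adjusted p 0.127). Nsg1, Bex1 and Evpl had 1.02 (SE 1.61), -0.87 (SE 1.24) and -1.32 (SE 0.69). Eng, Klk8 and P3h4 differed from thymus by -0.21, -0.22 and 0.13, with lymphomas on both sides of the thymus range.

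**Figure D3:**
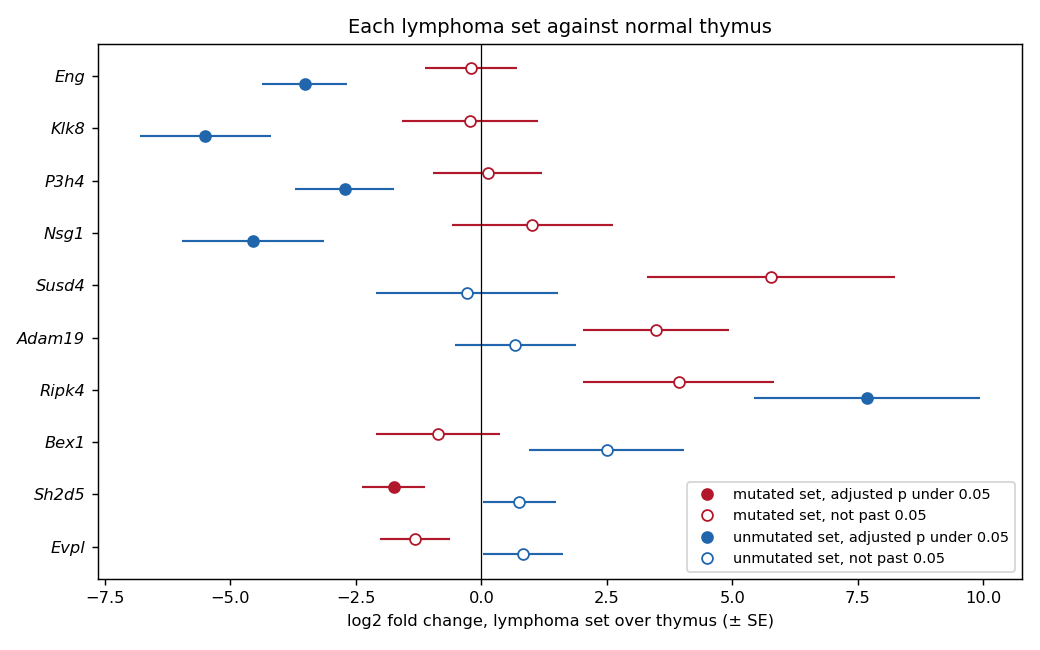
Log2 fold change of each lymphoma set over normal thymus for the 10 genes (dots), with SE bars, mutated set in red above the unmutated set in blue; filled dots passed an adjusted p of 0.05 in edgeR. The unmutated values of Eng, Klk8, P3h4 and Nsg1 lie between -5.50 and -2.72, while the mutated values of those genes lie within 1.02 of 0. The gap between the sets is the difference that chose the genes, so nothing is read from it. For each of these genes 6 of the 11 mutated lymphomas were below thymus.

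Whether the 10 genes followed the Ikzf1 level within the sets was tested in the 21 lymphomas with the set as a term. No gene of the 10 passed by edgeR, where 0.0152% of all tested genes did. None had an unadjusted p under 0.05 (8.7% of all tested genes), and DESeq2 called none (1.16%). The slopes, in log2 units of the gene per log2 unit of Ikzf1 CPM, ran from -0.76 for Klk8 (SE 0.59) to 0.98 for Ripk4 (SE 0.56). Adam19 had -0.58 (SE 0.32, edgeR adjusted p 0.640).

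**Figure D4:**
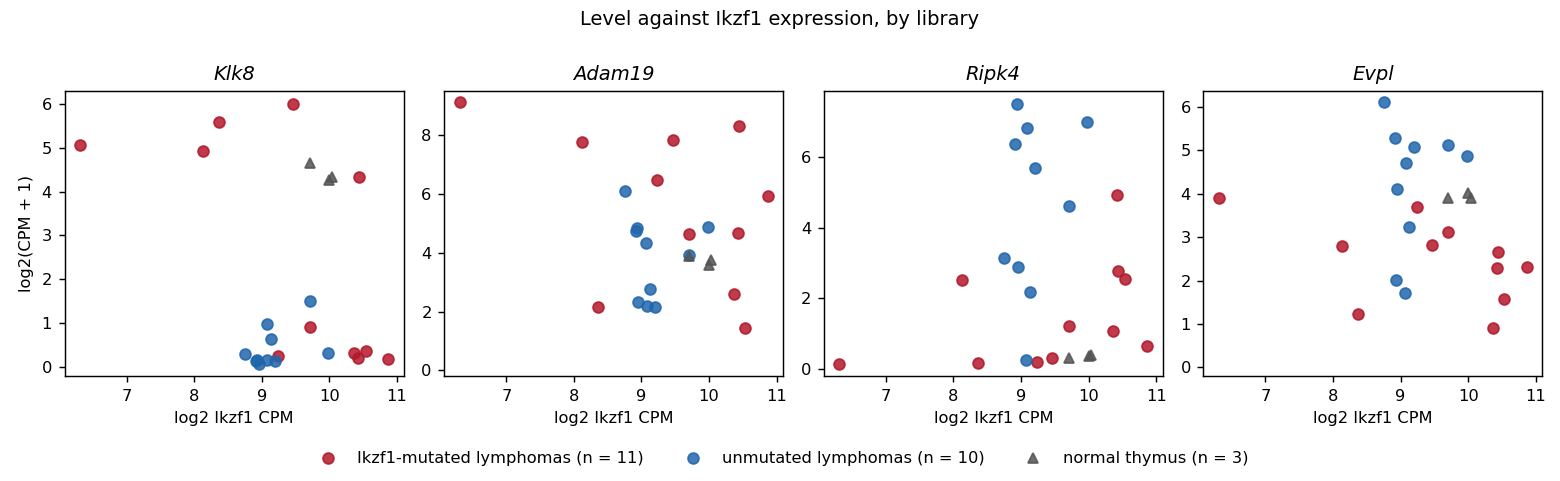
Level of Klk8, Adam19, Ripk4 and Evpl as log2(CPM + 1) against log2 Ikzf1 CPM; each circle is a lymphoma (red mutated, blue unmutated) and each triangle a thymus library. The mutated lymphomas span 79.3 to 1873 CPM of Ikzf1, and none of the slopes within sets passed the test.

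The sets also differed in chromosome 15 level, so the genes were set against it within the sets. None of the 10 slopes passed by edgeR, where 0.277% of all tested genes did, while 4 had an unadjusted p under 0.05 (12.8% of all tested genes) and DESeq2 called 2, Sh2d5 and Adam19 (2.36%). Sh2d5 had a slope of 5.14 log2 units per unit of chromosome 15 level (SE 1.35, edgeR adjusted p 0.110). Bex1 had 4.95 (SE 2.27, adjusted p 0.379), Susd4 -9.04 (SE 3.80, adjusted p 0.340) and Adam19 -7.12 (SE 3.17, adjusted p 0.366).

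The values by library show the pattern for Sh2d5. Within the unmutated set, Sh2d5 was 7.499 to 30.9 CPM in the 7 lymphomas with a level above 0.3 and 0.720, 1.42 and 3.01 CPM in the 3 others. Within the mutated set, lymphoma 12, the only one above 0.3, had the highest Sh2d5, 3.99 CPM, and the other 10 had 0.715 to 3.37 CPM. Bex1 was 0.191 to 137 CPM in the 7 unmutated lymphomas above 0.3 and 0.0327, 2.47 and 31.2 CPM in the others. Ripk4 and Evpl overlapped between those lymphomas, at 3.57 to 182 CPM and 3.003 to 37.8 CPM above 0.3, and at 0.185 to 112 CPM and 2.29 to 68.0 CPM at or below it.

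Susd4 was at most 0.0637 CPM in the 7 unmutated lymphomas above 0.3. In the 3 other unmutated lymphomas it was 0.0618 CPM (lymphoma 19), 3.74 CPM (21) and 1.24 CPM (31). Within the mutated set, Susd4 was 0 CPM in lymphoma 12 and 0 to 166.3 CPM in the other 10. Among those 10, lymphomas 4 and 14 held 0 and 0.0416 CPM. Adam19 overlapped within the unmutated set, at 3.50 to 28.5 CPM above 0.3 and 3.54 to 68.0 CPM at or below it. Within the mutated set it was 1.74 CPM in lymphoma 12 and 3.41 to 564.4 CPM in the other 10. With the chromosome 15 level in the model, 7 of 13121 genes (0.0533%) differed between the sets. The log2 set difference then was -0.86 for Sh2d5 (SE 0.56) and 0.42 for Adam19 (SE 1.47), smaller than without it (-2.50 and 2.80). The difference for Bex1 was also smaller, at -2.07 (SE 0.99) against -3.36 without the chromosome 15 level. It was 5.25 for Susd4 (SE 1.485), 5.22 for Nsg1 (SE 1.32), 4.57 for Klk8 (SE 2.19) and 3.62 for P3h4 (SE 0.90). For Eng it was 3.24 (SE 1.09), for Ripk4 -3.84 (SE 1.26) and for Evpl -2.67 (SE 0.69). Set and chromosome 15 level move together in these lymphomas, and their parts in the differences cannot be told apart.

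**Figure D5:**
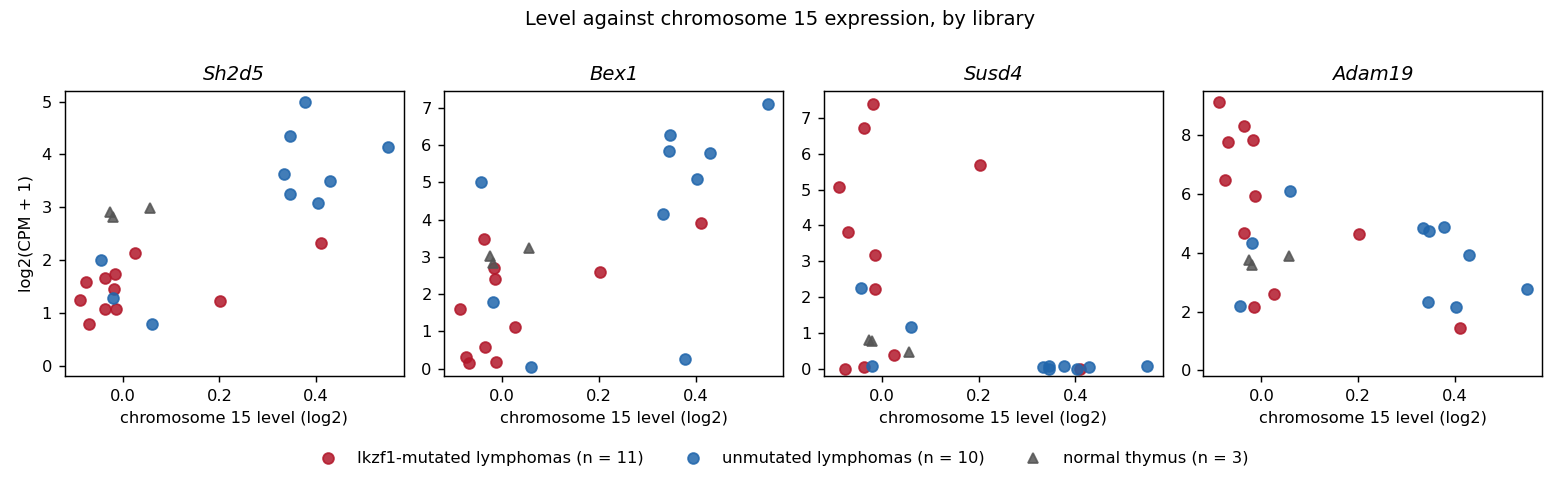
Level of Sh2d5, Bex1, Susd4 and Adam19 as log2(CPM + 1) against the chromosome 15 level of the library (log2, relative to the thymus mean), with circles for lymphomas (red mutated, blue unmutated) and triangles for thymus. The 7 unmutated lymphomas above 0.3 all exceed thymus for Sh2d5, and lymphoma 12 is the highest mutated lymphoma for Sh2d5 and Bex1.

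The genes were then set against each other and all others, as correlations of log2(CPM + 1) over the 21 lymphomas after the mean of each set was removed. They share libraries and depth, so these are descriptions. Among the 10 genes the highest values were 0.65 for Klk8 with Susd4, 0.57 for Susd4 with Adam19 and 0.54 for Eng with Klk8, and the lowest was -0.49 for Adam19 with Bex1. Over 11423 genes with a mean of at least 1 CPM, the closest to Klk8 were Ddx24 (r = 0.87) and Glrx5 (r = 0.84), both on chromosome 12. The closest to Sh2d5, Hsf1 (r = 0.79) and Ttll12 (r = 0.78), are both on chromosome 15. The closest to Nsg1, Golga2 (r = 0.83) and Rab14 (r = 0.73), are both on chromosome 2.

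The closest to P3h4 were Jup (r = 0.80), which lies 10.7 kb away, and Fam78a (r = 0.79). Those of Eng were Rgag4 (r = 0.80) and C1qtnf6 (r = 0.76), those of Susd4 were Arxes2 (r = 0.82) and Il22 (r = 0.79), and those of Adam19 were Adprhl2 and Tspan15 (both r = 0.80). Ripk4 was closest to Rwdd2b (r = 0.71), also on chromosome 16, and Slc39a6 (r = 0.70), Bex1 to genes that included Ubxn8 (r = 0.71), and Evpl to Cdkal1 (r = 0.82) and Utp14b (r = 0.75).

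Neighbouring genes were compared to see whether the difference ran beyond the gene itself. The nearest tested gene below Ripk4, Tmprss2 (131 kb away), which encodes a membrane serine protease, averaged 0.734 ± 0.724 CPM in the mutated set, 8.66 ± 6.20 CPM in the unmutated set and 0.168 ± 0.197 CPM in thymus (SD, n = 11, 10 and 3). Its log2 difference between the sets was -3.55 (SE 0.61, edgeR adjusted p 0.0101), and it rose by 5.66 in the unmutated set against thymus (adjusted p 0.00132). The gene on the other side of Ripk4, Prdm15, at 27.7 kb, did not pass between the sets (log2 -0.08, adjusted p 0.689).

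Kif17 overlaps Sh2d5 on the same strand. Its span, chr4:138250435-138301967, covers all of the span of Sh2d5 but the first bases. Kif17 had 27 counts in the mutated set, 138 in the unmutated set and 112 in thymus. Its log2 difference between the sets was -2.58 (SE 0.61, edgeR adjusted p 0.0212). Tceal7, which overlaps Bex1 on the other strand, had 8, 75 and 2 counts in those groups and a difference of -3.26 (SE 0.78, adjusted p 0.0214; -4.02 without lymphoma 9). Because Sh2d5 and Kif17 share a strand, the strand of counting could not separate their reads where they overlap. The sources used here do not give that strand. Bex1 and Tceal7, Eng and Fpgs, and Nsg1 and Stx18 lie on opposite strands. Whether their reads were separated where they overlap is therefore not known. Stx18 and Fpgs did not pass between the sets (log2 -0.11 and 0.07). Srp68, 7.09 kb from Evpl, was lower in the mutated set (log2 -0.48, SE 0.11, adjusted p 0.0184), and the other neighbours, Fkbp10 and Jup of P3h4, Nipal4 and Thg1l of Adam19, Disp1 and Capn2 of Susd4, Ctu1 and Klk1b27 of Klk8, Zbtb49 of Nsg1, St6galnac6 of Eng, Hp1bp3 of Sh2d5, Tceal8 of Bex1 and Ten1 of Evpl, did not pass.

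Related genes were counted for each family or pathway. Of the 22 tested genes of the endoglin, TGF-beta and BMP list, 2 were higher in the mutated set than in the unmutated set, against 5.38% of all tested genes called in either direction: Tgfbr2, the type 2 TGF-beta receptor (log2 0.90, SE 0.24, edgeR adjusted p 0.0304), and Smad3, a signal transducer of that receptor (log2 0.83, SE 0.24, adjusted p 0.0482). The call of Tgfbr2 was lost without lymphoma 22 or 34 and that of Smad3 when any 1 of 17 libraries was left out. The list had a median of 0.43, and 0.00 over all genes. In the unmutated set against thymus 5 of the 22 were called, against 35.4% of all tested genes: 1 rose (Tgfb3, log2 4.73, a call lost when any 1 of 11 libraries was left out and 4.05 without lymphoma 32) and 4 fell. Those that fell included Id3, a target of BMP signalling (log2 -2.81), Smad7, an inhibitor (log2 -2.62), and Tgfbr3, a co-receptor (log2 -1.896, lost when any 1 of 7 libraries was left out, all 3 of thymus among them).

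Of 14 tested genes of collagen modification other than P3h4, 0 were called between the sets by edgeR, against 5.38% of all tested genes. Their median was 0.34. In the lymphomas against thymus 5 of the 14 rose and none fell, where 30.8% of all tested genes were called in either direction. Those that rose included Crtap, the partner of prolyl 3-hydroxylase 1 (log2 1.69, SE 0.28, adjusted p 0.000109), and P4ha1, a prolyl 4-hydroxylase (log2 1.12, SE 0.28, adjusted p 0.00403). Of the 13 tested plakin and desmosome genes, 3 were called higher in the mutated set, against 5.38% of all tested genes called in either direction. Macf1 and Dst encode large cytolinkers (log2 0.70, edgeR adjusted p 0.0196, and log2 2.68, adjusted p 0.0355). The call of Dst was lost when any 1 of 7 libraries was left out, and without lymphoma 10 it was 1.89 (adjusted p 0.0786). Dsg2, a desmosomal cadherin, was called at a log2 of 5.94 (SE 1.56, edgeR adjusted p 0.0316). It was 89.3 CPM in lymphoma 15, at most 0.604 CPM in the other 10 mutated lymphomas, at most 0.351 CPM in the unmutated set and at most 0.829 CPM in thymus. Without lymphoma 15 its log2 difference was 0.49 (edgeR adjusted p 0.700). Evpl, of the same family, was lower in the mutated set.

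None of the 11 tested ADAM proteases other than Adam19 was called between the sets. The share of all tested genes called between the sets was 5.38%. In lists this short that share amounts to few or no calls. Nothing is therefore read from the counts between the sets in this paragraph. Against thymus, Adam12 fell in both sets (log2 -7.61 in the mutated set and -7.21 in the unmutated set, where it was -8.52 without lymphoma 31). Of the 9 tested Bex and Tceal genes other than Bex1, only Tceal7 was called between the sets. Bex2 fell in the unmutated set against thymus (log2 -4.77, SE 1.07, edgeR adjusted p 0.00168). Of 7 tested genes of the list of RIP kinases and related genes, which leaves out Ripk4, none was called between the sets. Ripk1, a kinase of cell death and inflammation, rose in the mutated set (log2 0.73, SE 0.19, edgeR adjusted p 0.00734) and in the unmutated set (log2 0.80, SE 0.19, adjusted p 0.00272) against thymus, and the call in the mutated set was lost without thymus 2. Medians of the log2 set difference were 0.67 for the plakin list, 0.04 for the ADAM list, -0.07 for the RIP kinase list and 0.18 for the SH2 adaptors. None of 12 complement and sushi genes other than Susd4, or of 9 SH2 adaptors other than Sh2d5, was called between the sets. Against thymus, the complement regulator Serping1 rose in the mutated set (log2 3.15) and in the unmutated set (log2 3.16), at 3.93 and 3.95 without thymus 2. Cd59a and Cd46 fell in both, and the call of Cd46 in the mutated set was lost without thymus 1 or 2. Sh2d1a, which encodes the T-cell adaptor SAP, fell in both sets (log2 -1.10 and -1.28, edgeR adjusted p 0.00804 and 0.00183), the first of which was lost without thymus 2. Nsg2, the paralogue of Nsg1, fell in both sets against thymus (log2 -2.24 and -1.93). Klk1, the only one of the 12 listed kallikreins with enough counts to be tested, did so too (log2 -3.23 and -2.68). In the mutated set its call was lost without thymus 1, and its log2 value was -3.905 without lymphoma 16. In the unmutated set the call was lost without thymus 1, 2 or 3 or lymphoma 22, and the value was -3.33 without lymphoma 35. Klk1b27, a kallikrein outside the list and a neighbour of Klk8, averaged 1.80 ± 1.46 CPM in the mutated set, 4.28 ± 6.93 CPM in the unmutated set and 0.185 ± 0.127 CPM in thymus (SD, n = 11, 10 and 3), and rose in the unmutated set against thymus (log2 4.498, SE 1.75, edgeR adjusted p 0.0485).

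Markers of other cell types stood beside the values. Endoglin is commonly used as an endothelial marker. The sum of 12 other endothelial markers was 118 to 269 CPM in the mutated set, 104 to 264 CPM in the unmutated set and 151 to 161 CPM in thymus, and Cldn5 was at 0 in each group, with Emcn at 0 in thymus. Most of this sum was Pecam1, with medians of 119, 124 and 150 CPM in those groups, while the medians of Cdh5, Kdr, Tek and Tie1 were at most 0.402 CPM in every group. The keratinocyte markers summed to 6.96 to 134 CPM in the mutated set, 15.1 to 52.9 CPM in the unmutated set and 22.7 to 34.4 CPM in thymus, and Dsg3 was at 0 in the unmutated set and in thymus. Lgals7 alone reached 114 CPM in the mutated set and 44.1 CPM in the unmutated set. The medians of Krt1, Krt5, Krt14, Trp63, Krtdap, Dsg3, Ivl and Lor were at most 0.305 CPM in both lymphoma sets. The neuron markers summed to 3.85 to 172 CPM in the mutated set, 4.88 to 64.4 CPM in the unmutated set and 13.6 to 18.1 CPM in thymus. Tubb3 alone reached 158 CPM in the mutated set and 61.7 CPM in the unmutated set. The medians of Snap25, Stmn2, Map2, Rbfox3, Syt1 and Gap43 were at most 0.387 CPM in both lymphoma sets. The erythroid markers summed to 6.91 to 344 CPM in the mutated set, 11.6 to 53.1 CPM in the unmutated set and 33.3 to 39.9 CPM in thymus. Between the sets, 1 fibroblast marker, Col1a2 (log2 2.42), and 2 erythroid markers, Hbb-bt (log2 2.10) and Hbb-bs (log2 1.902), were higher in the mutated set by edgeR. The other 10 marker lists had no call, where 5.38% of all tested genes were called. The call of Col1a2 was lost when any 1 of 18 libraries was left out (log2 3.02 without lymphoma 35), that of Hbb-bt when any 1 of 8 libraries was left out and that of Hbb-bs when any 1 of 18 libraries was left out. Their part in the differences of the 10 genes was not tested.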

How the data were processed

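Poly(A) RNA of 21 lymphomas and 3 normal thymus samples was sequenced. Per the submitters' processing notes, reads were handled with HISAT2 2.0.1, HTSeq 0.6.1, cutadapt 1.9.1, edgeR and SAMtools on GRCm38.p6; the sources used here give neither settings nor strand. The authors deposited raw counts, listed by symbol (21878 genes, not normalized), and a TPM table (column sums 991986 to 995531). The authors' filtered count tables hold 12194 and 12109 genes and gave the mutation sets through their column names.

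The test was edgeR 4.0.16 in R 4.3.3 (TMM, filterByExpr, glmQLFit, glmQLFTest), leaving 13121 genes, with Benjamini-Hochberg adjustment over all of them and a threshold of 0.05. A model of 2 groups compared lymphomas with thymus, and a model of 3 groups held the sets. Slopes on the log2 Ikzf1 level (13120 genes, without Ikzf1) and on the chromosome 15 level (12624 genes, without that chromosome) were fitted in the 21 lymphomas with the set as a term. The SE of a log2 value is its size over the square root of F. CPM values are scaled by TMM. Symbols were placed with GENCODE M21 (20611, 94.2%). Alternatives were RLE factors, no filter, DESeq2 1.42.0, limma 3.58.1 on log2(TPM + 1) and log2(TPM + 0.1), the authors' filtered tables and leaving out each library. The test was checked on simulated data. Intervals and floors of 3 counts cover counting error only. The 10 genes, the 10 pathway and family lists and the 12 marker lists were chosen with earlier results of these data known. The text names, for each list, up to 4 members with the smallest p in each comparison with thymus, all that passed where fewer than 3 did, for each gene the 2 most alike and the nearest tested genes on both sides. The difference between the slopes of the sets was tested after the data were seen, as was leaving out each library for the listed genes. Results for some genes that this rule would name are not reported here.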

Additional observations from a re-analysis of the deposited data

Results flagged for a closer look

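In the unmutated set, the highest value of 5 of the 10 genes stood apart from the other 9 lymphomas, with a gap to the next value of more than 0.466 of the range. Klk8 was 1.86 CPM in lymphoma 35, against 0.983 CPM in the next. P3h4 was 9.68 CPM in lymphoma 32, against 4.13 CPM in the next. Nsg1 was 1.84 CPM in lymphoma 21, against 0.128 CPM in the next. Susd4 was 3.74 CPM in the same lymphoma 21, against 1.24 CPM in the next. Adam19 was 68.0 CPM in lymphoma 31, against 28.5 CPM in the next. For values with a normal spread, chance flags about 1 in 20 groups, and 11 groups were tested here. The CPM values were skewed, as for Nsg1 in the unmutated set (mean 0.222 and median 0.0452 CPM). The rate of chance flags here is therefore not known, and nothing is read from the number flagged. The mutated set of 11 lymphomas was not tested in this way.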

How the results depend on the processing

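No paired analysis was run, because the labels do not link any lymphoma to a thymus sample. The direction of the difference between the sets was fixed by the choice of the genes, so nothing is read from its being kept. Of the values of single genes under the alternatives, 1728 kept direction and side of the threshold and 61 changed sign. Another 21 lost the threshold, 12 gained it and 18 moved, and the cause was not tested. The values that moved were all of the difference between the sets. That difference is also counted among the 1728, so nothing is read from their number.

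The count of the 10 genes called in all lymphomas against thymus was 1 with DESeq2, and 0 to 1 when each library was left out (1 without lymphoma 2, 4, 7, 10 or 17, each time Ripk4). In the mutated set against thymus it was 0 with no filter on low counts, 0 with limma on log2(TPM + 1), 0 on log2(TPM + 0.1) and 4 with DESeq2. It ran from 0 to 2 when each library was left out (2 without lymphoma 12, where Adam19 passed at 0.0491). In the unmutated set against thymus it ran from 3 to 5 when each library was left out (3 without thymus 1 or thymus 2). For the chromosome 15 slope DESeq2 gave 2.

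The following log2 values, none past the threshold, changed sign. With DESeq2, Nsg1 in all lymphomas against thymus was -1.07. On log2(TPM + 1) and then on log2(TPM + 0.1), all lymphomas against thymus gave -1.445 and -3.05 for Nsg1, -0.545 and -0.948 for Bex1, and -0.542 and -0.825 for Evpl. On the same scales in that order, the mutated set against thymus gave -0.52 and -0.67 for P3h4 and -0.43 and -1.25 for Nsg1. The Ikzf1 slope gave -0.18 and -0.23 for P3h4 and -0.0228 and -0.0348 for Bex1, and the chromosome 15 slope gave 1.47 and 2.33 for Nsg1 and 1.519 and 3.485 for Ripk4. On log2(TPM + 0.1) alone, the unmutated set against thymus gave -0.0909 for Adam19 and -0.0315 for Sh2d5, and the Ikzf1 slope gave 0.0446 for Nsg1. With both levels in 1 model, the Ikzf1 slope was -0.28 for P3h4 and 0.24 for Susd4, and the chromosome 15 slope was 0.10 for Eng. Within the mutated set alone, the Ikzf1 slope was -0.00702 for P3h4 and 0.0292 for Susd4. Within the unmutated set alone, it was 1.31 for Eng, 2.42 for Klk8 and -0.77 for Bex1, and the chromosome 15 slope was 0.70 for Eng, 0.72 for Klk8 and 0.17 for Ripk4. A test of the difference between the slopes of the sets, added after the data were seen, called none of the 10 genes.

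When each library was left out, the sign changed within these ranges: -0.41 to 0.21 for Nsg1, -0.38 to 0.0042 for Sh2d5 and -0.20 to 0.15 for Evpl in all lymphomas against thymus, and -0.37 to 0.27 for P3h4 in the mutated set against thymus. For the Ikzf1 slope they were -0.16 to 0.55 for P3h4, -0.42 to 2.73 for Nsg1 and -0.60 to 0.0090 for Susd4. For the chromosome 15 slope they were -0.88 to 1.13 for Eng, -5.17 to 1.75 for Nsg1 and -1.28 to 1.83 for Ripk4.

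Over all genes, leaving out each library gave 1929 to 4435 calls for lymphomas against thymus (4044 with all libraries), 1441 to 3904 for the mutated set (3412), 2856 to 4895 for the unmutated set (4640), 301 to 1221 between the sets (706), 0 to 7 for the Ikzf1 slope (2) and 2 to 120 for the chromosome 15 slope (35). The lowest counts against thymus were without thymus 2, and those between the sets without lymphoma 34. DESeq2 called 1269 genes between the sets, 149 for the Ikzf1 slope and 298 for the chromosome 15 slope, and the chromosome 15 slope had 69 calls with no filter and 1 with both levels in the model. On log2(TPM + 1), 1434 of 4024 calls in lymphomas against thymus were higher, against 2022 of 4044 in counts, 1313 of 3354 in the mutated set, against 1713 of 3412, 1507 of 4632 in the unmutated set, against 2365 of 4640, and 502 of 656 between the sets, against 319 of 706; log2(TPM + 0.1) gave 1558 of 4090, 1434 of 3412, 1620 of 4718 and 509 of 662. On log2(TPM + 0.1) the median of all genes stood at -0.10 for lymphomas against thymus, -0.15 for the unmutated set and 0.10 between the sets. With 23 counts of Ripk4 and 51 of Susd4 in thymus, depth limits their fold changes.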
